A study of Homo sapiens with 36 samples.

Results

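The transcripts described here encode 9 proteins of amino acid transport: SLC7A11, SLC7A5, SLC3A2, SLC7A1, SLC1A4, SLC1A5, SLC38A1, SLC38A2 and SLC6A9. They were taken by gene name from the 18048 genes with values in each table, and all 9 were found. They were measured in EA.hy926, a human hybrid line of umbilical vein endothelial cells and a lung carcinoma line, labelled wild type. Cells were given the vehicle (0.05% DMSO) or perfluorooctanoic acid (PFOA), a persistent perfluoroalkyl acid, at 1, 10 or 100 µM for 48 h, or at 1, 10 or 100 nM for 6 or for 12 weeks. This gave 12 groups of 3 biological replicates, 36 libraries in all, each time with its own vehicle group. Cells of the 48 h groups were lysed in the dish, and those of the 6 and 12 week groups were collected at passage, so that length of culture and way of collection cannot be told apart between 48 h and the later times. Whether the times shared a sequencing run is not given in the sources used here, so run and time cannot be told apart in any comparison between times, 6 against 12 weeks included. The line is a single hybrid clone kept in selection medium, which limits it as a model of endothelium.

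Cells import amino acids through carriers with overlapping substrates. SLC7A5 (LAT1) exchanges large neutral amino acids such as leucine, and SLC7A11 (xCT) takes up cystine in exchange for glutamate for glutathione synthesis. Both are light chains that need the glycoprotein SLC3A2 (4F2hc) as a heavy chain to reach the plasma membrane. SLC1A5 (ASCT2) and SLC1A4 (ASCT1) exchange neutral amino acids, including glutamine in the case of SLC1A5. SLC38A1 and SLC38A2 are sodium-coupled importers of glutamine and alanine. SLC7A1 (CAT1) imports arginine and lysine, of which endothelial cells use arginine for nitric oxide synthesis, and SLC6A9 imports glycine. Several of these genes are known targets of ATF4, the transcription factor made when eIF2alpha is phosphorylated during amino acid shortage or endoplasmic reticulum stress. SLC7A11 is also a known target of NRF2.

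Libraries held 17815292 to 19466331 reads. Size factors over the 36 libraries, by which reads are divided, ran from 0.553 (vehicle replicate 2 at 12 weeks) to 1.37 (replicate 2 at 10 nM after 6 weeks). The share of reads from 85 ribosomal protein genes, an index of library composition, ran from 9.37% to 22.2%, and the first principal component held 69.2% to 83.8% of the variance within a time. Of 11 endothelial markers, 9 had a mean of at least 10, among them PECAM1 (1192 to 4598) and CDH5 (1058 to 4432), while KDR did not exceed 5.19 and CLDN5 did not exceed 0.747. The keratins KRT7, KRT8 and KRT18 of the epithelial list were abundant, with medians of 19357, 9782 and 24136, and EPCAM and CDH1 did not exceed 21.2 and 0.960. Of the leukocyte list only CD68 was above a mean of 10.

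RefSeq promoter sequences of GRCh38.p14 were at hand for 8 of the 9 genes, with 14 annotated starts. The gene without one was SLC7A11, so its promoter was not searched. The 250 bases before each start were searched on both strands for TGATGNAA, the core of the composite site bound by ATF4 with a C/EBP partner, for TGACNNNGC, the core of the antioxidant response element bound by NRF2, and for the E-box CACGTG. No match overlapped another. The ATF4 core was found before 1 of the 14 starts, against 3.14% of all 35116 promoters, the antioxidant core before 3 (10.9% of all promoters) and the E-box before 2 (6.34%). The windows that hold a match are shown 5′ to 3′ with the matches in capitals. They are followed by 1 of the 2 windows of SLC1A4, neither of which held a match. The SLC1A4 window not shown (chr2:64989149-64989398) ends in ttgcatc. The next base was not searched, and an a there would complete the ATF4 core on the opposite strand. SLC1A4 is included because its transcript differed most between vehicle groups.

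SLC1A5 (GRCh38.p14 chr19:46784815-46785064, minus strand): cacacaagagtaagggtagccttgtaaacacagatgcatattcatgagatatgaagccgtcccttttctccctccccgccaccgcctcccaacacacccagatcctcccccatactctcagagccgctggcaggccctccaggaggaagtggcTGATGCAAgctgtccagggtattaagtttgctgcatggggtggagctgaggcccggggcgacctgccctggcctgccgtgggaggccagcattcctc

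SLC1A5 (GRCh38.p14 chr19:46787294-46787543, minus strand): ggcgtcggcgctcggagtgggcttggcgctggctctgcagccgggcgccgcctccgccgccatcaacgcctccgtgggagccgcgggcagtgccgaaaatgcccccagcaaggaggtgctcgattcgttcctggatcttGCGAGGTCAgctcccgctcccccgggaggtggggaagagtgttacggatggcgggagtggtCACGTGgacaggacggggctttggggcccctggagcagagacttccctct

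SLC7A5 (GRCh38.p14 chr16:87869508-87869757, minus strand): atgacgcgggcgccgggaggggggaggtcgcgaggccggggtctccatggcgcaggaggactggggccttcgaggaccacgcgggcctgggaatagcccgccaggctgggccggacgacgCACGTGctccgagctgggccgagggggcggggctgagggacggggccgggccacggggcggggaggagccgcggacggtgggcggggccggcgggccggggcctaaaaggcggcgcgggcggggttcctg

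SLC3A2 (GRCh38.p14 chr11:62881449-62881698, plus strand): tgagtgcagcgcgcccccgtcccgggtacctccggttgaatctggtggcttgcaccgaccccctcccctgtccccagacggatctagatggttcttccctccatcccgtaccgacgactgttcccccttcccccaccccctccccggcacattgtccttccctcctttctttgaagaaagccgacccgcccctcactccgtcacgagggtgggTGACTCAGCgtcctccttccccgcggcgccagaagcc

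SLC7A1 (GRCh38.p14 chr13:29595689-29595938, minus strand): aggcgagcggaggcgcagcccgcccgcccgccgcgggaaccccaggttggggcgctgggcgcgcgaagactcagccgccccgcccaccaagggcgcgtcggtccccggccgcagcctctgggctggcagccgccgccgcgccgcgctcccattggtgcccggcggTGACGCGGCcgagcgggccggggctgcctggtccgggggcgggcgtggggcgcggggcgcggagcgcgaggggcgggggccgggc

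SLC1A4 (GRCh38.p14 chr2:64988229-64988478, plus strand): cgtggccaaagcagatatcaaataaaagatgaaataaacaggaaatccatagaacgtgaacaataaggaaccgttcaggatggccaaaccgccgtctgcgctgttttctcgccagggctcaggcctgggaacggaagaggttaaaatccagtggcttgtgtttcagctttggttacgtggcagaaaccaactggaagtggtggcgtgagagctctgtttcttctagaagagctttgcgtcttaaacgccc

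The first SLC1A5 window holds the ATF4 core 97 bases before its start. The second holds the antioxidant core on the opposite strand 111 bases before its start and the E-box 50 bases before. Both windows lie within the gene (chr19:46774883-46788594), before internal starts. The SLC1A5 window just outside the gene (chr19:46788595-46788844) held no match. SLC7A5 has the E-box 130 bases before its start, SLC3A2 the antioxidant core 37 bases before, and SLC7A1 the antioxidant core 85 bases before. SLC3A2 had a match before 1 of its 3 starts, and that window also lies within the gene (chr11:62856109-62888860). These matches describe the letters only, and no binding was measured.

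Transcript levels per kilobase of transcript, which allow genes to be compared, put the heavy chain first at every time. In vehicle cells at 48 h SLC3A2 stood at 1711 ± 493 normalised reads per kb (SD, n = 3), SLC1A5 at 780 ± 67.3 and SLC38A2 at 540 ± 55.0. SLC38A1 (188 ± 36.9) and SLC7A5 (184 ± 25.0) followed and did not differ beyond their spread. SLC7A1 stood at 51.0 ± 10.4 and SLC7A11 at 40.4 ± 2.83, also within their spread, and SLC1A4 was lowest at 13.9 ± 2.06. At 12 weeks SLC3A2 stood at 13878 ± 8288 and SLC1A5 at 3259 ± 2172. SLC7A5 (826 ± 408) and SLC38A2 (820 ± 462) were then level with each other. SLC38A1 stood at 309 ± 146, and SLC1A4 (148 ± 31.3), SLC7A1 (111 ± 23.2) and SLC7A11 (96.0 ± 50.7) lay within one another's spread. SLC6A9, the glycine carrier, was barely read: it had 2, 3 and 12 reads in all at 48 h, 6 weeks and 12 weeks, in 1, 2 and 7 of 12 libraries, and no more than 4 reads in any. In the 3 vehicle libraries at 48 h and the 3 at 12 weeks it had no read, and a count of 0 allows up to 3 reads in a library. SLC6A9 failed the filter on low values (a mean of at least 10) at every time, so tests cover 8 of the 9 genes. SLC6A9 lies in a region shared with CCDC24, and without the use of strand being given its few reads cannot be told apart from those of that gene.

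**Figure D1:**
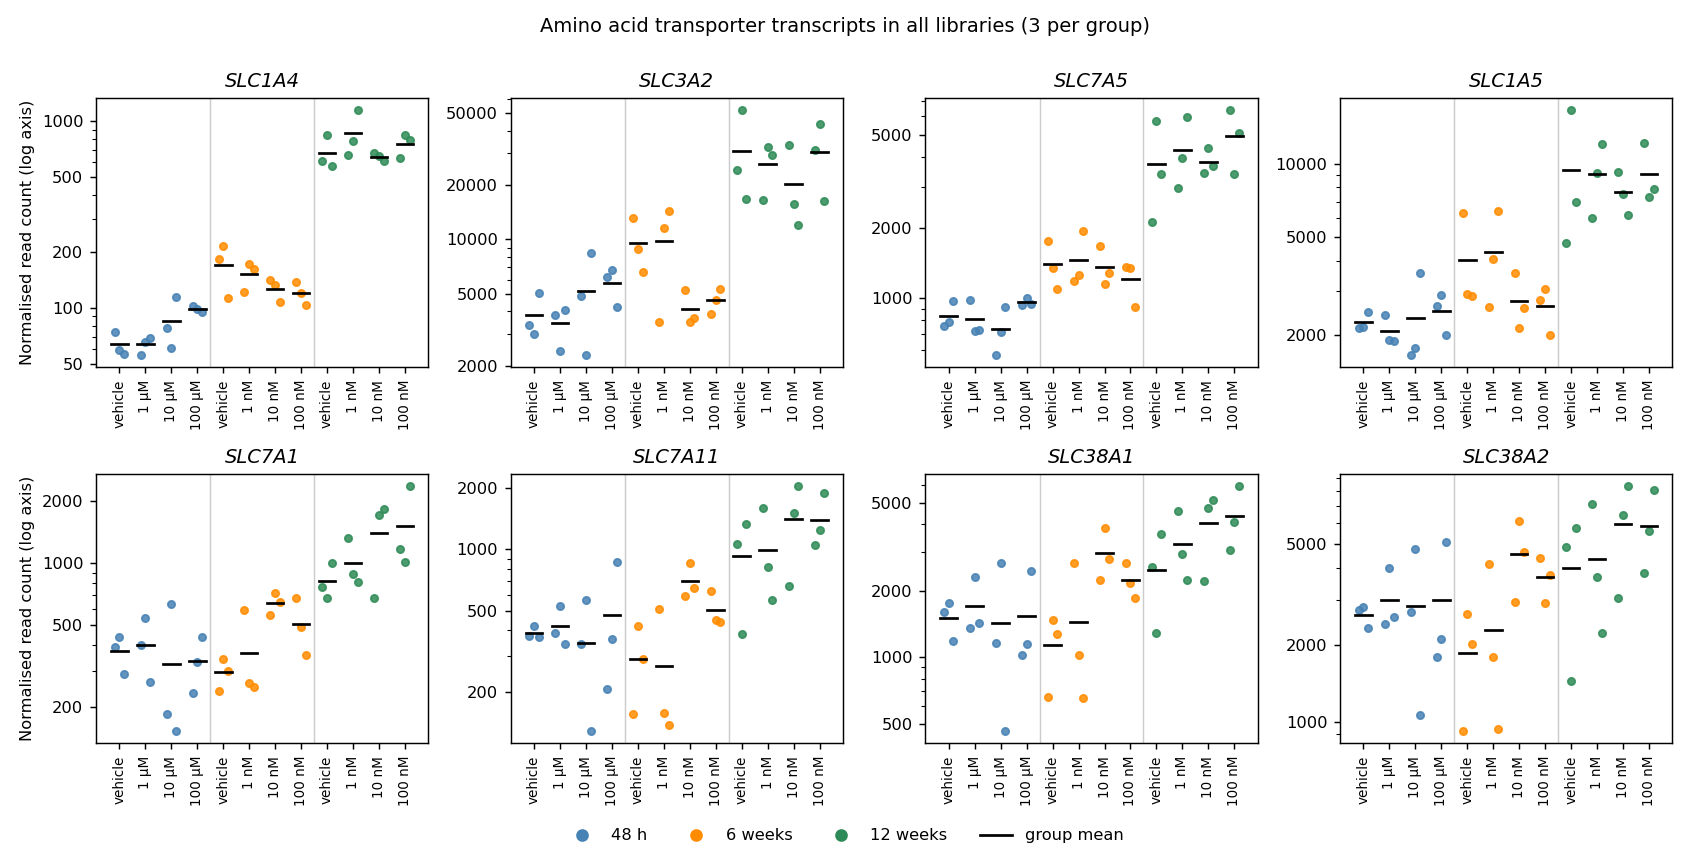
Normalised read counts (log axis) of the 8 tested transporter transcripts in all 36 libraries, with 3 points per group and a bar at the group mean. All 12 libraries at 12 weeks lie above all 12 at 6 weeks and at 48 h for SLC1A4 and SLC7A5, and at 6 weeks 5 of the 8 genes do not overlap the vehicle at 10 and 100 nM.

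The largest differences among these genes lay between times and not between doses. In vehicle cells all 8 tested transcripts were higher at 12 weeks than at 48 h, and 4 rose past the test: SLC1A4 10.3-fold, SLC3A2 7.40-fold, SLC7A5 4.13-fold and SLC1A5 3.62-fold. These are the 2 neutral amino acid exchangers of the SLC1 family, the leucine exchanger and its heavy chain. SLC1A4 and SLC7A5 also rose between 6 and 12 weeks, and SLC1A4 between 48 h and 6 weeks. For these comparisons the values were put on 1 scale with size factors over all 36 libraries. The deposited scale lay close to it, with a median offset of 0.022 to 0.027 (log2) in each table.

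SLC1A4 stood at 73.0, 58.7 and 56.0 in the 3 vehicle libraries at 48 h, at 179, 210 and 111 at 6 weeks, and at 600, 818 and 563 at 12 weeks. The 3 times did not overlap. The log2 fold change from 48 h to 12 weeks was 3.37 ± 0.25 (SE, limma adjusted p = 5.43e-10), with 660 ± 138 against 62.5 ± 9.12 (SD, n = 3). From 6 to 12 weeks the fold change of SLC1A4 was 2.01 ± 0.25 (limma adjusted p = 3.86e-06), and from 48 h to 6 weeks it was 1.36 ± 0.25 (limma adjusted p = 0.00714). The last of these lost its call when vehicle replicate 2 or 3 at 48 h or replicate 1 or 2 at 6 weeks was left out (adjusted p = 0.0575 to 0.125).

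SLC3A2, the heavy chain shared by LAT1 and xCT, stood at 3311, 2934 and 4971 at 48 h, 12946, 8654 and 6500 at 6 weeks, and 23684, 50453 and 16397 at 12 weeks. The times again did not overlap, although replicate 2 at 12 weeks was far above the other two. Its size factor was 0.553, the lowest of all libraries, against 0.915 and 1.11 for replicates 1 and 3. Before scaling these 3 libraries held 18130 to 27895 reads of SLC3A2. Replicate 2 also held the highest 12 week vehicle values of SLC7A5, SLC1A5 and SLC1A4, and the lowest of SLC7A1, SLC7A11, SLC38A1 and SLC38A2. From 48 h to 12 weeks the log2 fold change of SLC3A2 was 2.89 ± 0.51 (limma adjusted p = 0.000381). Its fold changes over the single steps, 1.30 ± 0.51 to 6 weeks and 1.58 ± 0.51 from 6 to 12 weeks, did not pass (limma adjusted p = 0.487 and 0.0764). With edgeR the second of these passed (1.69, edgeR adjusted p = 0.0383).

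SLC7A5, the light chain for leucine, stood at 741, 775 and 952 at 48 h, 1713, 1317 and 1074 at 6 weeks, and 2066, 5616 and 3324 at 12 weeks. No library of a later time reached down to an earlier one. The log2 fold change of SLC7A5 was 2.05 ± 0.31 from 48 h to 12 weeks (limma adjusted p = 4.65e-05) and 1.33 ± 0.31 from 6 to 12 weeks (limma adjusted p = 0.00797). The second call was lost without vehicle replicate 3 at 6 weeks or replicate 2 at 12 weeks (adjusted p = 0.0601 and 0.0723). Between 48 h and 6 weeks the difference was 0.72 ± 0.31 (limma adjusted p = 0.525).

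SLC1A5, the glutamine carrier, stood at 2091, 2106 and 2435 at 48 h, 6166, 2883 and 2819 at 6 weeks, and 4646, 16121 and 6803 at 12 weeks. The 48 h libraries lay below all others, whereas 6 and 12 weeks overlapped. From 48 h to 12 weeks the log2 fold change of SLC1A5 was 1.86 ± 0.40 (limma adjusted p = 0.00296), and from 6 to 12 weeks it was 1.12 ± 0.40 (limma adjusted p = 0.127, and 0.0465 and 0.0423 without vehicle replicate 1 at 6 or at 12 weeks). Between 48 h and 6 weeks SLC1A5 differed by 0.74 ± 0.40 (limma adjusted p = 0.525).

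The arginine carrier SLC7A1 stood at 385, 433 and 286 at 48 h, 235, 337 and 295 at 6 weeks, and 754, 662 and 989 at 12 weeks. All 3 libraries at 12 weeks lay above those of both earlier times. Even so its log2 fold changes of 1.12 ± 0.45 against 48 h and 1.46 ± 0.45 against 6 weeks did not pass (limma adjusted p = 0.143 and 0.0621). The cystine carrier SLC7A11 stood at 368, 414 and 367 at 48 h, 152, 415 and 283 at 6 weeks, and 1044, 374 and 1306 at 12 weeks. Replicate 2 at 12 weeks lay within the range of the earlier times, and the log2 fold change from 6 to 12 weeks was 1.61 ± 0.58 (limma adjusted p = 0.132, and 0.0383 without that library). The glutamine importers SLC38A1 and SLC38A2 overlapped between all times. From 48 h to 12 weeks SLC38A2 had the lowest value of the 8 (0.38 ± 0.59, limma adjusted p = 0.734), and also from 6 to 12 weeks (1.01 ± 0.59, limma adjusted p = 0.529) and from 48 h to 6 weeks (-0.63 ± 0.59, limma adjusted p = 0.578). The first of these was 0.0073 without vehicle replicate 3 and 1.00 without replicate 2 at 12 weeks, and the second was 0.56 without replicate 1 at 6 weeks and 1.63 without replicate 2 at 12 weeks.

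**Figure D2:**
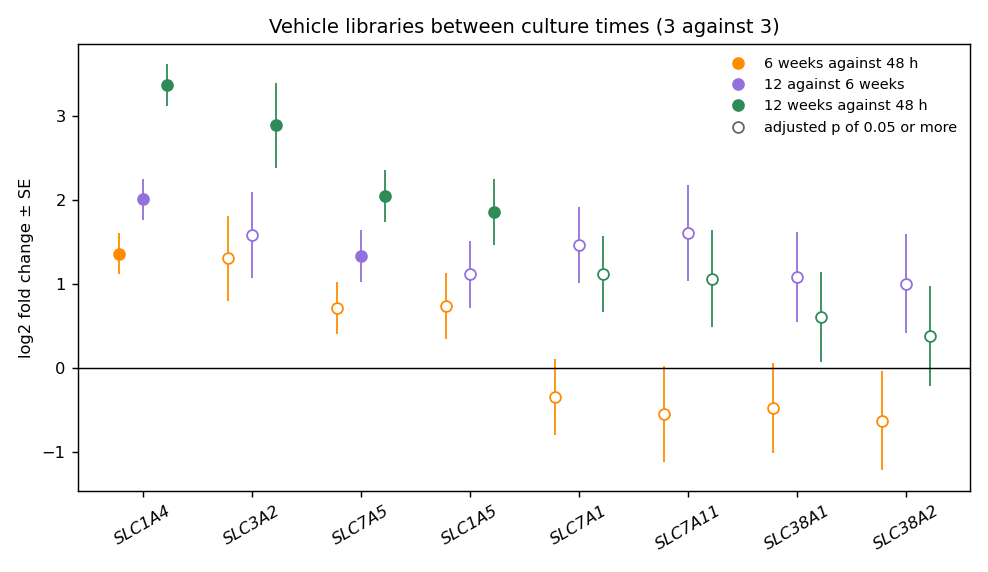
Log2 fold change between vehicle groups of different times (points, 3 libraries against 3) with its standard error (bars) for the 8 tested transcripts; filled points have an adjusted p under 0.05. SLC1A4 is filled in all 3 comparisons, from 1.36 to 3.37, and the SLC38 genes in none.

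In counts, 4 of the 8 tested transcripts passed from 48 h to 12 weeks, where limma called 7.03% of 12283 genes, and the median of the 8 was 1.49 against -0.02 over all genes. From 6 to 12 weeks 2 of 8 passed, with 4.55% of genes called, and the median was 1.40 against -0.00 over all genes. From 48 h to 6 weeks 1 of 8 passed, with 0.212% called and a median of 0.19 against -0.02. The vehicle groups did not overlap for 5, 4 and 4 of the 8 in the same order, against 24.7%, 12.8% and 27.3% of all genes. The transporters were chosen with earlier results of these data known, so these counts and medians are descriptions. With a fit on the 6 libraries of a comparison alone, which has a poorer estimate of the spread, 3 passed from 48 h to 12 weeks (SLC1A5 at adjusted p = 0.0955) with 1.43% of genes called. It called 0 of the 8 from 6 to 12 weeks and from 48 h to 6 weeks, with 0.0814% and 0.00814% of genes. Adding the leading principal component of the libraries to the fit made all 8 pass in both comparisons with 12 weeks (24.9% of genes called from 6 weeks and 29.4% from 48 h) and 2 between 48 h and 6 weeks (3.02%). DESeq2 called 6 of the 8 from 6 to 12 weeks, with 6.42% of genes, quantile normalization gave 4, with 4.58%, and edgeR 3, with 4.45%.

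With the PFOA-exposed libraries included, on the same common scale, 2 of the 8 transcripts were separate between 6 and 12 weeks. The number was 0 between 48 h and 6 weeks, where the share over all genes is not given here, and 5 between 48 h and 12 weeks. In vehicle cells alone these numbers were 4, 4 and 5. The 12 libraries of a time include its vehicle libraries, so the numbers could not be higher than in vehicle cells and say nothing about exposure. Over all 12 libraries of a time, SLC1A4 did not exceed 113 at 48 h (lowest 55.1) or 210 at 6 weeks (lowest 101.3), and at 12 weeks it was between 563 and 1118. SLC7A5 reached 974 at 48 h and 1889 at 6 weeks, from lowest values of 562 and 899, and lay between 2066 and 6223 at 12 weeks. For both, all 12 libraries at 12 weeks lay above all 12 at 6 weeks, as did 1.67% of all genes. SLC3A2 and SLC7A1, whose vehicle libraries were separate between 6 and 12 weeks, overlapped here (lowest 11829 and 662 at 12 weeks against highest 14032 and 712 at 6 weeks), and SLC1A4 overlapped between 48 h and 6 weeks. Against 48 h, 5 of the 8 had all 12 libraries at 12 weeks above all 12 (SLC1A4, SLC7A5, SLC3A2, SLC7A1 and SLC1A5), against 2.43% of all genes. In vehicle cells at 12 weeks the 9 genes together took 0.193% to 0.238% of reads, against 0.0746% to 0.0871% after 6 weeks and 0.0659% to 0.0740% after 48 h.

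Other measures moved with time too. The ribosomal share of vehicle cells at 12 weeks was 16.5% to 21.4%, against 17.2% to 19.4% after 6 weeks and 12.1% to 17.1% after 48 h. The summed level of 5 fibroblast or mural markers, 2 of which had a mean of at least 10, was 915 to 1405 in vehicle cells at 12 weeks, against 358 to 496 after 6 weeks and 250 to 341 after 48 h. Most of it was ACTA2 (187 to 1455 over all libraries), whereas COL1A2, PDGFRB and DES did not exceed 1.30, 9.91 and 5.56. The endothelial sums overlapped between times, at 28406 to 40468, 22768 to 50679 and 22376 to 52870, as did the epithelial sums, at 36150 to 102898, 72855 to 139959 and 38520 to 113604. The part of composition or cell state in the differences between times was not tested.

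Part of the ATF4 pathway was higher at 12 weeks too. Of 14 regulators of that pathway, 8 had higher and 6 lower means from 48 h to 12 weeks in vehicle cells. Past the test 6 rose and 1 fell, where limma called 7.03% of 12283 genes. The median of the 14 was 0.62 against -0.02 over all genes. This list and those below were chosen with earlier results of these data known, so their counts and medians are descriptions. ATF4 itself stood at 5505 ± 797 at 48 h, 10493 ± 2426 at 6 weeks and 17599 ± 7506 at 12 weeks (SD, n = 3), and its log2 fold change from 48 h to 12 weeks was 1.60 ± 0.32 (limma adjusted p = 0.00145). TRIB3, a pseudokinase that restrains ATF4, went from 2401 ± 31.6 to 14322 ± 3351, a log2 fold change of 2.55 ± 0.25 (limma adjusted p = 6.55e-08). NUPR1, a stress-induced chromatin protein, rose from 7.07 ± 5.14 to 560 ± 378 (6.02 ± 0.82, limma adjusted p = 1.27e-05). CEBPG, DDIT3 and PPP1R15A, respectively a C/EBP partner of ATF4, the transcription factor CHOP and the phosphatase subunit GADD34, rose by 1.96 ± 0.30, 1.76 ± 0.50 and 2.12 ± 0.41 on the log2 scale (limma adjusted p = 7.29e-05, 0.0283 and 0.000995). EIF2AK1, the haem-regulated eIF2alpha kinase, fell by 0.67 ± 0.17 (limma adjusted p = 0.0144), and EIF2AK3, which encodes the kinase PERK, had the lowest value of the list without passing (-0.89 ± 0.65, limma adjusted p = 0.461). From 6 to 12 weeks CEBPG, TRIB3 and NUPR1 rose and EIF2AK1 fell, with 4.55% of all genes called. From 48 h to 6 weeks 0 of the 14 passed, with 0.212% called.

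The other lists moved less. For the counts that follow, limma called 7.03% of all 12283 genes from 48 h to 12 weeks, so 1 gene in a list of 14 is near that share. Of 14 tested amino acid transporters outside the group described here, from 26 listed, 0 rose and 1 fell, with a median of -0.14. The gene that fell was SLC7A8, the second LAT light chain (102 ± 32.9 at 48 h against 22.2 ± 8.82 at 12 weeks, log2 fold change -2.18 ± 0.52, limma adjusted p = 0.00796). SLC1A3, a glutamate carrier, had the highest value of that list (1.45 ± 0.50, limma adjusted p = 0.0806). Of 14 NRF2 and glutathione genes 1 rose: CHAC1, which degrades glutathione and is also an ATF4 target, from 57.4 ± 38.6 to 2735 ± 2263 (5.42 ± 0.73, limma adjusted p = 1.24e-05). GSR, glutathione reductase, had the lowest value there (-0.66 ± 0.28, limma adjusted p = 0.167), and the list's median was 0.27. Of 11 tested genes of amino acid sensing 2 rose, the leucine sensor SESN2 (2.32 ± 0.30, limma adjusted p = 5.90e-06) and the Rag GTPase RRAGC (0.91 ± 0.26, limma adjusted p = 0.0283), with a median of -0.05 for the list.

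**Figure D3:**
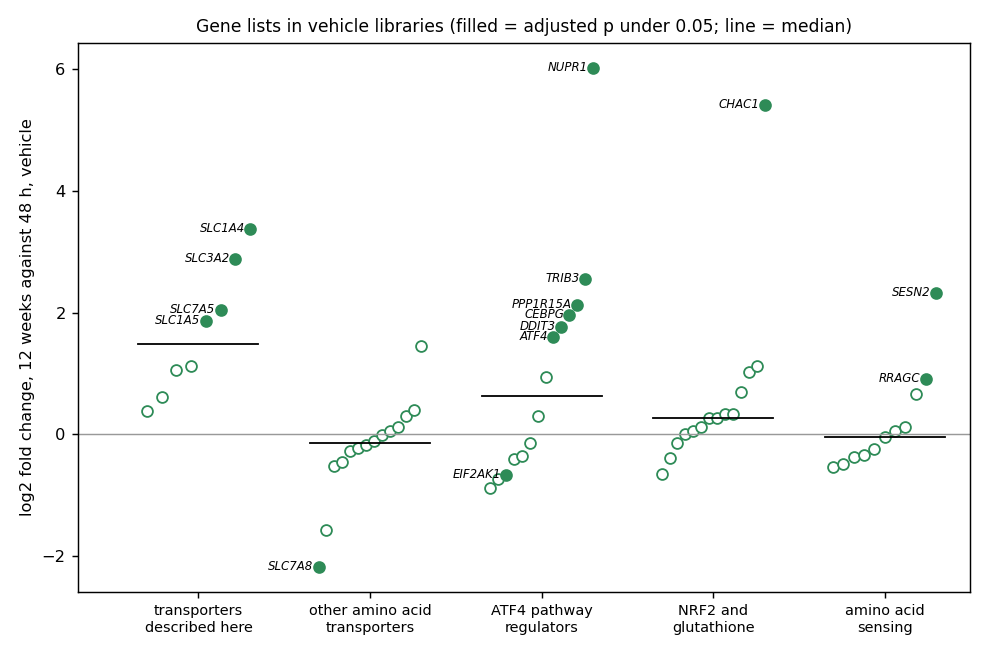
Log2 fold change from 48 h to 12 weeks in vehicle cells for the 8 tested transporters and for 4 lists of related genes (1 point per gene, filled where the adjusted p is under 0.05, line at the median). The medians are 1.49 for the transporters, -0.14 for other amino acid transporters, 0.62 for ATF4 pathway regulators, 0.27 for NRF2 and glutathione and -0.05 for amino acid sensing.

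No transporter passed at any PFOA dose. In all 9 comparisons of a dose with its vehicle, and in the 3 dose trends, 0 of the 8 tested transcripts had a limma adjusted p under 0.05, and so had 0% of all genes. edgeR also called 0 of the 8 and 0% of genes in each. DESeq2 called 5 at 10 nM after 6 weeks, with 30.4% of all genes, and 3 in the 6 week trend, with 26%. Elsewhere it called 0, with no more than 0.0164% of genes (0.0164% at 1 nM after 6 weeks, 0.0163% at 10 nM and in the trend at 12 weeks, 0.00817% at 1 and at 10 µM, 0.00813% at 100 nM after 12 weeks). At an unadjusted p under 0.05 stood 5 of the 8 at 10 nM after 6 weeks (44% of all genes) and in the 6 week trend (44.6%), and 1 at 100 µM after 48 h (1.99%) and in the 48 h trend (4.25%). That number was 0 at 1 and 10 µM (0.049% and 2.82% of genes), at 1 and 100 nM after 6 weeks (0.254% and 12.2%), at 1, 10 and 100 nM after 12 weeks (0.195%, 1.37% and 2.33%) and in the 12 week trend (2.22%).

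After 48 h the transcript that stood furthest from the vehicle was SLC1A4. Its 3 libraries at 100 µM held 103, 98.3 and 94.3 against 74.3, 59.7 and 56.8 in vehicle cells. The groups did not overlap, which was so for 10.8% of all genes. The log2 fold change was 0.63 ± 0.26 (unadjusted p = 0.0364, limma adjusted p = 0.993). At 10 µM SLC1A4 held 78.4, 61.0 and 115, and at 1 µM 55.9, 65.7 and 69.2, both overlapping the vehicle. Its slope over the 4 groups was 0.23 ± 0.08 per dose step (unadjusted p = 0.0208, limma adjusted p = 0.808). SLC7A1 was lowest in the same comparison (-0.19 ± 0.50, limma adjusted p = 0.993) and in the trend (-0.11 ± 0.16, limma adjusted p = 0.837).

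At the lower short doses all 8 transcripts overlapped the vehicle, as against 2.31% of genes without overlap at 1 µM and 6.19% at 10 µM. At 10 µM their log2 fold changes ran from -0.49 ± 0.50 for SLC7A1 to 0.37 ± 0.26 for SLC1A4 (both with limma adjusted p = 0.960). At 1 µM they ran from -0.15 ± 0.44 for SLC3A2 to 0.16 ± 0.52 for SLC38A2 (limma adjusted p = 1.00 for both). Of the related lists 0 genes passed at 100 µM, where CHAC1 stood at 1.70 ± 0.72 and NUPR1 at 1.73 ± 0.85 (limma adjusted p = 0.993 for both). The median of the 14 ATF4 regulators there was 0.12 and that of the 8 transporters 0.09, against 0.03 over all genes.

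After 6 weeks at 10 nM 5 of the 8 transcripts were separate from the vehicle, in opposite directions, as were 60.3% of all genes. SLC38A1 held 2243, 3844 and 2788 against 658, 1478 and 1276 in vehicle cells (1.42 ± 0.48). SLC7A11 held 588, 859 and 643 against 155, 423 and 288 (1.36 ± 0.48). Both stood above the vehicle in all 3 libraries, as did the pair that follows, while SLC1A5 overlapped the vehicle, with 3567, 2118 and 2567 against 6285, 2940 and 2866 (-0.48). SLC38A2 held 2967, 6121 and 4631 against 926, 2653 and 2018 (1.36 ± 0.53), and SLC7A1 558, 720 and 645 against 239, 344 and 300.3 (1.13 ± 0.35). SLC3A2 lay below the vehicle, with 5253, 3503 and 3669 against 13195, 8825 and 6609 (-1.17 ± 0.47). For the 4 higher transcripts the limma adjusted p was 0.0953 each and for SLC3A2 0.0968. SLC7A5, the partner of SLC3A2, held 1668, 1142 and 1273 against 1746, 1343 and 1092, an overlap.

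These 5 passed at 10 nM with DESeq2, which called 30.4% of all genes, and with a fit on the 6 libraries alone, which called 38.8%. With the leading principal component added to the fit 0 of the 8 and 0% of genes passed, and the values became 0.14 for SLC38A1, 0.091 for SLC7A11, -0.024 for SLC38A2, 0.31 for SLC7A1 and 0.052 for SLC3A2. The ribosomal share was 9.37% to 13.4% in the libraries at 10 nM against 17.2% to 19.4% in the vehicle, without overlap. Size factors were 0.631, 0.931 and 1.01 in the vehicle and 1.18, 1.37 and 1.33 at 10 nM. The leading component came from the same 12 libraries without removing the groups and held 83.8% of the variance. It can therefore take up the group difference itself, and that fit cannot assign any part of it to library composition. The part of the ribosomal share in the values above was not tested.

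At 100 nM the same 5 genes were separate from the vehicle, with 47.3% of all genes. The ribosomal share was 11.7% to 16.3% there, again below all vehicle libraries. SLC38A2 stood at 1.09 ± 0.53, SLC38A1 at 1.04 ± 0.48, SLC7A11 at 0.90 ± 0.48 and SLC7A1 at 0.75 ± 0.35, and SLC3A2 at -1.0 ± 0.47, each with a limma adjusted p of 0.272. At 1 nM all 8 overlapped the vehicle, as against 1.31% of genes that did not, and ran from -0.26 ± 0.48 for SLC7A11 to 0.22 ± 0.35 for SLC7A1 (limma adjusted p = 1.00 for both). The slopes over the 4 groups were 0.45 ± 0.17 per dose step for SLC38A2, 0.44 ± 0.15 for SLC38A1, 0.43 ± 0.15 for SLC7A11, 0.32 ± 0.11 for SLC7A1 and -0.40 ± 0.15 for SLC3A2 (limma adjusted p = 0.0979 for each). Of these DESeq2 called SLC3A2, SLC7A1 and SLC38A1, with 26% of all genes. Without replicate 1 at 1 nM, whose ribosomal share was the lowest of its group, all 5 passed the trend (limma adjusted p = 0.00315 to 0.00693). The share of all genes that passed in that fit is not given here, so the 5 cannot be set against it. In the trend on all 12 libraries 44.6% of genes had an unadjusted limma p under 0.05.

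**Figure D4:**
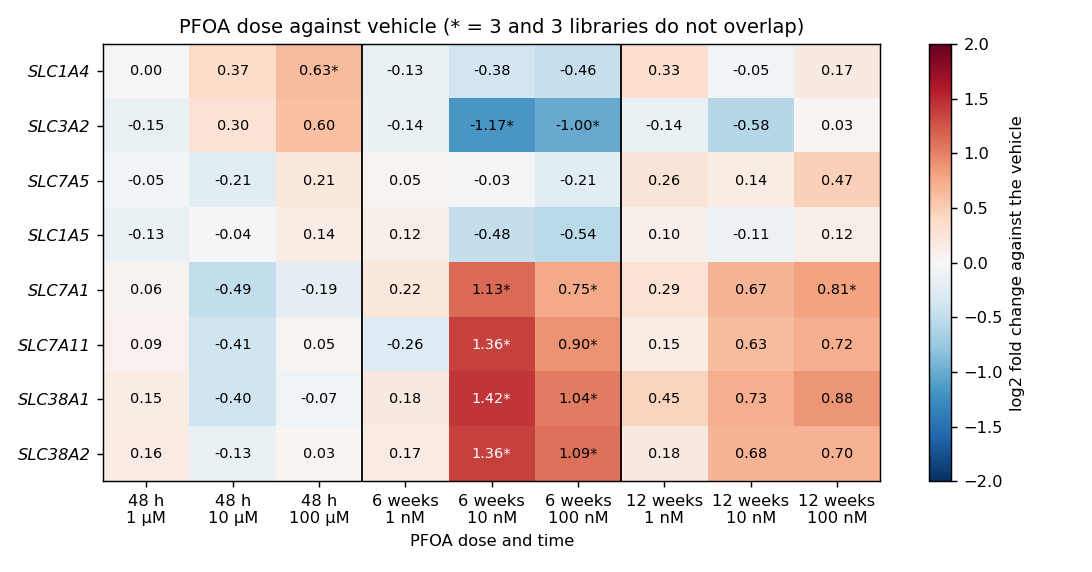
Log2 fold change of each of the 8 tested transcripts against the vehicle of its time at 9 combinations of dose and time (colour and number; 3 libraries against 3). Asterisks mark the 12 values whose libraries do not overlap the vehicle, 10 of them at 6 weeks and the largest 1.42 for SLC38A1 at 10 nM; none has an adjusted p under 0.05.

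After 12 weeks at 100 nM all 8 transcripts had means above the vehicle on the log2 scale, with a median of 0.59 against 0.00 over all genes. SLC7A1 was the 1 transcript without overlap, against 4.64% of all genes: it held 1176, 1019 and 2368 against 768, 678 and 1008 (0.81 ± 0.43, limma adjusted p = 0.751). SLC38A1 had the largest difference (0.88 ± 0.47, limma adjusted p = 0.751) and SLC3A2 the smallest (0.03 ± 0.54, limma adjusted p = 0.977). The 9 genes took 0.298% to 0.327% of reads at 100 nM against 0.193% to 0.238% in the vehicle, while the ribosomal share was 11.1% to 19.0% against 16.5% to 21.4%. These are shares of reads before scaling, and their difference was not tested. Among the 9 genes SLC3A2 held the most reads, 20944 to 36957 at 100 nM and 18130 to 27895 in the vehicle.

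At 10 nM and at 1 nM after 12 weeks all 8 overlapped the vehicle, as against 3.28% and 2.46% of genes that did not. At 10 nM they ran from -0.58 ± 0.54 for SLC3A2 to 0.73 ± 0.47 for SLC38A1 (limma adjusted p = 0.657 and 0.655), and at 1 nM from -0.14 ± 0.54 for SLC3A2 to 0.45 ± 0.47 for SLC38A1 (limma adjusted p = 1.00 for both). The 12 week slopes ran from -0.03 ± 0.17 per dose step for SLC3A2 to 0.29 ± 0.15 for SLC38A1 (limma adjusted p = 0.926 and 0.657). The 4 related lists had 0 passing genes at every dose and time. The difference between the effects at 12 and 6 weeks, tested in 24 libraries, passed for 0 of the 8 at 1, 10 or 100 nM, with 0% of genes called by limma and by edgeR. DESeq2 also called 0 of the 8, with 0.0163% of genes at 1 and at 10 nM and 0.00813% at 100 nM, and 0 had an unadjusted p under 0.05 (0.252%, 0.407% and 0.618% of genes at 1, 10 and 100 nM). At 100 nM it was largest for SLC3A2 (1.03 ± 0.74) and smallest for SLC38A2 (-0.39 ± 0.84), both with limma adjusted p = 1.00. At 10 nM it ran from -0.73 ± 0.78 for SLC7A11 to 0.59 ± 0.74 for SLC3A2 (limma adjusted p = 0.908 for both), and at 1 nM from -0.02 ± 0.61 for SLC1A5 to 0.46 ± 0.37 for SLC1A4 (limma adjusted p = 1.00 for both).

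Within groups the transcripts varied in opposing ways. With each group centred on its own mean, SLC7A11, SLC7A1, SLC38A1 and SLC38A2 varied together over the 36 libraries (r = 0.781 to 0.964 in 6 pairs), as did SLC3A2, SLC7A5, SLC1A4 and SLC1A5 (r = 0.392 to 0.877 in 6 pairs). All 16 pairs between the sets had r below 0 (-0.922 to -0.119). The sets were formed after these values were seen and are a description, and the points share library composition. SLC3A2 and its xCT partner SLC7A11 had r = -0.875.

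The ribosomal share followed the same division. Over 36 libraries, centred by group, SLC7A1 fell as the share rose (r = -0.956, rho = -0.925), as did SLC38A1 (r = -0.866, rho = -0.831), SLC7A11 (r = -0.803, rho = -0.798) and SLC38A2 (r = -0.769, rho = -0.767), while SLC3A2 rose with it (r = 0.913, rho = 0.911). For these 5 the permutation p of r and rho was 1e-05, the smallest that 100000 permutations can give, and 1.6e-05 adjusted over 8 relations. SLC1A5 rose with the share too (r = 0.474, rho = 0.444, permutation p = 0.0146 and 0.0193, adjusted 0.0195 and 0.0257). SLC1A4 (r = 0.383, rho = 0.361, permutation p = 0.0444 and 0.0582, adjusted 0.0507 and 0.0665) and SLC7A5 (r = 0.0990, rho = 0.0582, permutation p = 0.615 and 0.776) did not pass. Without the 2 libraries whose share, centred by group, lay farthest from its median, r was -0.945 for SLC7A1, 0.901 for SLC3A2 and 0.456 for SLC1A5.

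Within each time the relation for SLC7A1 was r = -0.956, -0.958 and -0.964 at 48 h, 6 weeks and 12 weeks (12 libraries each), and for SLC3A2 0.967, 0.931 and 0.887. Such relations were common: 76.8% of 11951 genes had an r beyond 0.5 in either direction. The transcripts that fell with the share have lengths of 9645 nt for SLC7A11, 8066 nt for SLC38A1, 7347 nt for SLC7A1 and 4888 nt for SLC38A2, with GC contents of 35.4%, 41.3%, 52.7% and 38.1%. SLC3A2 has 2222 nt and 57.4% GC, and SLC1A5 2882 nt and 61.3%. SLC1A4 has 4561 nt and 52.6% GC, and SLC7A5 4537 nt and 61.1%. Across all genes, which are not independent replicates, the r with the share correlated with GC content (0.643) and with log length (-0.473). The part of length or GC content in the relations of these transporters was not tested.

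Genes whose pattern was most like each transporter were found by Pearson r over the 36 libraries with each time centred on its own mean, among 11943 other genes. For SLC1A4 they were CARS1, a cysteinyl-tRNA synthetase (r = 0.873), and IPO9, a nuclear import receptor (0.817). For SLC7A5 they were STC2, a secreted stanniocalcin (0.853), and ZNRF3, a membrane ubiquitin ligase (0.812). These 2 transporters, the least tied to the ribosomal share, had the lowest likeness values. The other leading genes were PMM1 (0.981) and MTFP1 (0.981) for SLC3A2, MED22 (0.961) and QSOX1 (0.953) for SLC1A5, RASAL2 (0.972) and CUL4A (0.969) for SLC7A1, and RASA2 (0.969) and ADGRG6 (0.966) for SLC7A11. For SLC38A1 they were WDFY1 (0.987) and the nucleoporin NUP160 (0.986), and for SLC38A2 ANO6 (0.984) and the receptor BMPR2 (0.984). These libraries share composition and depth, so the values are descriptions.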

How the data were processed

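Per the labels' protocols, TRIzol was used to extract RNA with integrity numbers above 9, and paired reads of 150 bp came from a DNBSEQ instrument. Per the submitters' processing notes, the build was GRCh38.p14 and the tools included HISAT, Bowtie2 and DESeq2. Which tool counted reads, and whether by strand, is not given in the sources used here. The deposited signal is a normalised read count: for each library the authors divided the reads of a gene by 1 size factor, in 1 table for each time. Undoing the factor gave whole reads for 100% of values to within 0.01 (for vehicle replicate 3 at 6 weeks the step was 1.01, near 1). The recovered factors lay closer to factors computed over the 36 libraries (the log2 ratio had an SD of 0.00384 to 0.00460) than to factors within 1 table (0.00755 to 0.0106). At 6 weeks 1 line naming no gene was left out.

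In R 4.3.3 the main test was that of limma 3.58.1, run with trend on log2(signal + 1), 1 mean per group, for genes with a mean of at least 10, two-sided, with Benjamini-Hochberg adjustment over all genes tested and a threshold of 0.05. Fold changes on this scale understate the change of low genes. Doses were fitted within a time (12 libraries), differences between 12 and 6 weeks on 24 libraries, and vehicle levels on 36 libraries after rescaling the recovered reads to median-ratio factors over all of them. A dose trend is the slope per step through the 4 group means. With 3 against 3 libraries an exact permutation test of 1 value could not go below p = 0.1. The fit was also run on simulated counts in which genes varied independently. Those counts lack the component shared by the libraries here, so that run does not show how the fit behaves on these data.

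A fold change was printed for a transporter where the 2 groups did not overlap, the unadjusted p was under 0.05 or the value was the highest or lowest of the 8. From the lists, genes that passed or were highest or lowest could be named, and the 2 genes most like each transporter were named by Pearson r. The members and lists were chosen with earlier results of these data known. Gene names, promoters and positions are from RefSeq for GRCh38.p14, and transcript lengths and GC contents from the longest GENCODE transcript. Alternatives were other pseudocounts and filters, quantile normalization, a replicate block, the leading principal component as a covariate, the compared groups alone, each library left out, and count models of the recovered reads with DESeq2 1.42.0 and with edgeR 4.0.16.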

Additional observations from a re-analysis of the deposited data

How the results depend on the processing

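Pseudocounts of 0.1 and 10, no filter and a filter at a mean of 50 left every count of passing transporters and the direction and call of every printed fold change as they were. The count that passed from 48 h to 6 weeks in vehicle cells was 1, and it became 2 with the leading principal component as a covariate, 0 with only the groups compared, and 0 to 1 with a library left out. From 6 to 12 weeks the count of 2 became 4 with quantile normalization, 8 with the covariate, 6 with DESeq2, 3 with edgeR (SLC3A2 added) and 0 with only the groups compared, and was 1 to 3 with a library left out, the 1 being without vehicle replicate 3 at 6 weeks. From 48 h to 12 weeks the count of 4 became 8 with the covariate and 3 with only the groups compared. At 10 nM after 6 weeks the count of 0 became 5 with DESeq2 (30.4% of all genes called) and with only the groups compared (38.8%). For the 6 week trend it became 3 with DESeq2 (26%) and 0 to 5 with a library left out. For fits with a library left out the share of all genes called is not given here. The fits on only the groups compared rest on 6 libraries in place of 12 or 36. The cause of the other changes was not tested.

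The covariate turned these values, none of which had passed: SLC7A1 at 100 µM after 48 h (0.13) and in the 48 h trend (0.029), SLC3A2 (0.052) and SLC38A2 (-0.024) at 10 nM and SLC7A11 (-0.068) at 100 nM after 6 weeks, SLC3A2 at 1 nM (0.20), at 10 nM (0.15) and in the trend (0.19) at 12 weeks, and SLC38A2 in vehicle cells from 48 h to 6 weeks (0.11). In the differences between 12 and 6 weeks it turned SLC1A5 at 1 nM (0.10), SLC3A2 at 10 nM (-0.00233) and SLC38A2 at 100 nM (0.035). Quantile normalization turned SLC3A2 at 1 nM (0.067) and in the trend (0.10) at 12 weeks and SLC1A5 in the 1 nM difference (0.23), and DESeq2 turned SLC3A2 at 100 nM after 12 weeks (-0.041). With 1 library left out, SLC3A2 ranged from -0.30 to 0.090 at 1 µM after 48 h, from -0.50 to 0.31 at 1 nM, -0.33 to 0.49 at 100 nM and -0.14 to 0.10 in the trend at 12 weeks. SLC38A2 ranged from -0.070 to 0.29 at 1 µM after 48 h and from -1.01 to 0.046 in the 100 nM difference, SLC7A1 from -0.41 to 0.048 at 100 µM after 48 h and -0.19 to 0.43 at 1 nM after 6 weeks, SLC7A11 from -0.86 to 0.084 at 1 nM after 6 weeks, and SLC1A5 from -0.41 to 0.49 in the 1 nM difference.

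Same-numbered libraries did not go together throughout: their deviations correlated between -0.846 and 0.874 after 12 weeks, between -0.861 and 0.808 after 6 weeks and between -0.892 and 0.892 after 48 h. After 48 h replicates 2 and 3 of the vehicle, 1 µM and 10 µM correlated by number (r = 0.667 to 0.892). Against 100 µM the same replicates had r = -0.892 to -0.516. With 3 libraries in a group these values cannot settle whether the numbers mark a pairing. With the replicate block 0 transporters passed in every dose comparison, trend and difference, as without it. For vehicle cells between times the block was not run, since a block within each time cannot estimate those differences. Depth limits SLC6A9 above all, and SLC1A4 at 48 h rested on no more than 114 reads in a library.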
